A study of Mus musculus with 126 samples.

Results

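The interferon-stimulated genes described here are 48 genes of the antiviral response of mouse cells: RNA sensors, the proteins that carry and limit the signal, and the effectors that act on viral RNA, on translation, on membranes or on intracellular vacuoles. They were taken by gene symbol from a list drawn up with earlier results of these data known, and 47 of the 48 were found by symbol among the 23420 genes of the deposited count table. Of these, 44 passed the filter on low counts and were tested, while Ifit3, Tgtp2 and Ifi44 had too few counts. Ifi27 was not found under that symbol.

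The study asks how DNA methylation and histone acetylation together shape the binding of transcription factors in mouse embryonic stem cells, and its RNA-seq part has 8 libraries in 4 groups of 2. The wild type is the J1 line of embryonic stem cells. TKO cells (triple knockout) were derived on that background and are without the DNA methyltransferases Dnmt1, Dnmt3a and Dnmt3b. Each genotype received Trichostatin A (TSA), an inhibitor of histone deacetylases, at 5 ng/µl for 36 h, or the solvent DMSO at 0.0033% for the same time. All 4 groups were grown on gelatin in medium with serum and leukaemia inhibitory factor (LIF). The labels do not say whether the 2 libraries of a group came from separate cultures, so p-values measure only the spread between these libraries. The labels do not give the number of TKO clones.

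Cells detect viral double-stranded RNA with helicases such as RIG-I (Ddx58) and MDA5 (Ifih1), which signal through MAVS to the factors IRF3 and IRF7, and these switch on the interferon genes. Secreted interferon then acts through its receptors and a complex that holds STAT2 and IRF9 on a response element in the promoters of the interferon-stimulated genes. Loss of DNA methylation or inhibition of histone deacetylases can raise transcripts of endogenous retroviruses in some cell types, and these can be read by the same sensors. Pluripotent cells are known for a weak interferon response. Whether an antiviral-like response accompanied the loss of methylation or the inhibition of deacetylases was therefore examined for sensors, mediators and effectors separately.

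Libraries held 13280631 to 15542527 counts, so that 3 counts, the floor used here for bounds, corresponded to 0.183 to 0.243 CPM (reads of a gene relative to the TMM-scaled reads of its library). Values below this floor are printed where they occur and rest on fewer than 3 counts a library. Dnmt1, Dnmt3a and Dnmt3b were lower in all 4 TKO libraries than in all 4 wild type libraries, with log2 fold changes of -1.78, -2.996 and -3.72 in DMSO. The 9 embryonic stem cell markers summed to 3357 to 3758 CPM in wild type cells with DMSO and to 1917 to 2148 with TSA. In TKO cells the sums were 4188 to 4543 and 1872 to 2198, and 7 of the 9 fell with TSA in each genotype. Of 9 fibroblast markers, 8 were tested, and with TSA 5 rose and 1 fell in wild type while all 8 rose in TKO. Their summed level was 40.3 to 47.3 CPM in wild type cells with DMSO and 87.8 to 104.5 with TSA, and in TKO cells 21.9 to 22.6 and 49.7 to 74.2. The 9 leukocyte markers, with Adgre1 under its older symbol Emr1, summed to 34.7 to 41.7 CPM, 33.3 to 34.8, 49.1 to 49.9 and 34.7 to 38.2 in the same order, most of it from Laptm5 and Cd68, with Tyrobp at 0 in every DMSO library. Of 6 tested under their listed symbols, 3 rose (Ptprc, Itgam and Csf1r) and 1 fell with TSA in wild type, and 1 rose (Ptprc) and 3 fell in TKO. Emr1 is in the sums but not among these 6. It held 0 and 1 counts in wild type cells with DMSO and 7 and 6 with TSA. In TKO cells it held 1 and 0 counts with DMSO and 13 and 15 with TSA. Ptprc, the common leukocyte antigen, had a mean of 0.519 CPM in wild type cells with DMSO and 3.98 with TSA, and of 0.105 and 4.09 in TKO cells. The 4 endothelial markers summed to 39.7 to 40.5, 21.6 to 28.3, 60.6 to 74.4 and 37.9 to 40.5 CPM, with Emcn at 0 in all 8 libraries. The part of these cell markers in the results below was not tested.

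TSA moved the interferon-stimulated genes in both directions, and in cells without the DNA methyltransferases of the members called more were lower than higher. Levels are CPM after scaling by TMM factors, which align the libraries on the bulk of their genes. A gene was called where the adjusted p of edgeR's quasi-likelihood test over all 15822 tested genes was below 0.05, and the verbs rose and fell are kept for called genes, with the size as a log2 fold change. With TSA in wild type, 14 of the 44 rose and 14 fell, which is 63.6% called where 52.8% of all tested genes were called. With TSA in TKO, 13 rose and 19 fell, or 72.7% called against 58.7% of all tested genes. In TKO against wild type under DMSO, 4 were higher and 8 lower, or 27.3% called against 20.4% of all tested genes (9.63% higher and 10.7% lower). In TKO against wild type under TSA, 1 was higher and 7 lower, or 18.2% called against 18.4% (10% higher and 8.38% lower). The median log2 fold change of the 44 was -0.05, -0.25, 0.00 and -0.16 in these 4 comparisons, beside 0.01, 0.04, -0.01 and 0.00 for all tested genes, and the medians were the same with folds against near-empty groups set to their lower bound. In a bulk sample, fewer cells expressing a gene and less RNA per cell cannot be told apart.

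By direction, the share of the 44 that was higher lay close to that of all tested genes under TSA (31.8% against 27% in wild type, 29.5% against 30.8% in TKO), and the share that was lower was 31.8% against 25.9% in wild type and 43.2% against 27.9% in TKO. Scaling the libraries by their totals alone gave another split, with 16 up and 11 down in wild type and 17 up and 15 down in TKO. For all tested genes it gave 5812 up and 2433 down in wild type, where TMM gave 4266 and 4092, and 5908 up and 3267 down in TKO, where TMM gave 4872 and 4412. That scaling also moved the median of all tested genes to 0.22 and 0.19. With TMM factors and a fold of at least 2, 11 of the 44 were called higher and 8 lower in wild type. Of all tested genes 15.8% and 5.04% were. In TKO 11 of the 44 were called higher and 9 lower at that fold, where 18.2% and 7.77% of all tested genes were. Changes below are given with TMM factors.

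**Figure D1:**
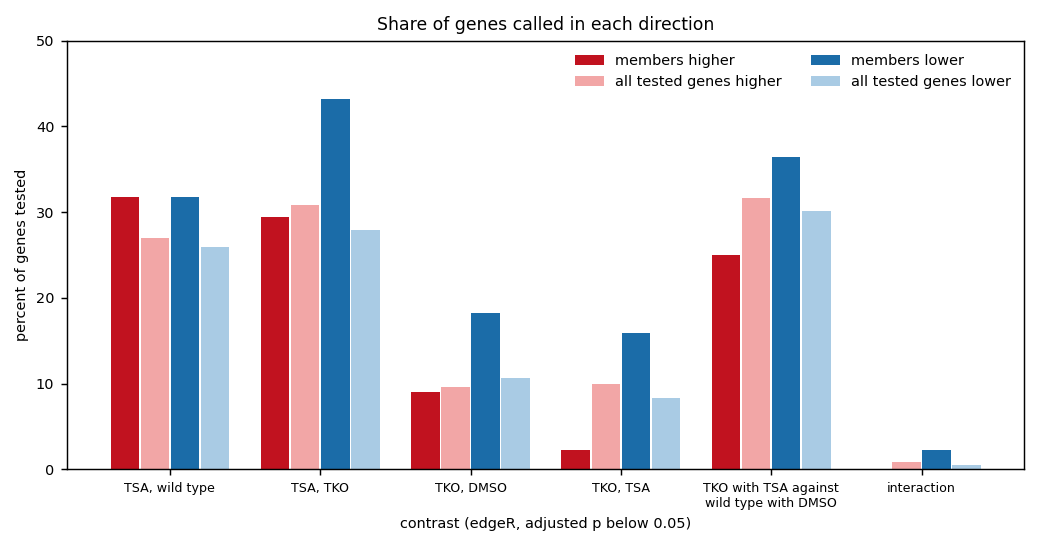
Percent of genes called higher (red) or lower (blue) by edgeR at an adjusted p below 0.05 in each of the 6 contrasts, for the 44 tested interferon-stimulated genes (dark bars) and all 15822 tested genes (light bars). Under TSA in TKO 43.2% of the interferon-stimulated genes were lower, where the share of all tested genes was 27.9%.

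The same genes moved in both genotypes for the most part. Of the 14 that rose in wild type and the 13 that rose in TKO, 12 were shared, which is 85.7% and 92.3% of the 2 lists. For all tested genes the shares were 81.3% and 71.2%. Of the 14 that fell in wild type and the 19 that fell in TKO, 13 were shared, or 92.9% and 68.4%, beside 81.8% and 75.9% for all tested genes. No member rose in one genotype and fell in the other. The 12 that rose in both were Ifih1, Dhx58, Tlr3, Irf7, Usp18, Isg15, Rsad2, Cmpk2, Mx1, Mx2, Bst2 and Irgm2. The 13 that fell in both were Zbp1, Irf1, Irf9, Parp9, Parp14, Dtx3l, Adar, Ifitm1, Ifitm2, Ifitm3, Tgtp1, Gbp2 and Gbp3.

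**Figure D2:**
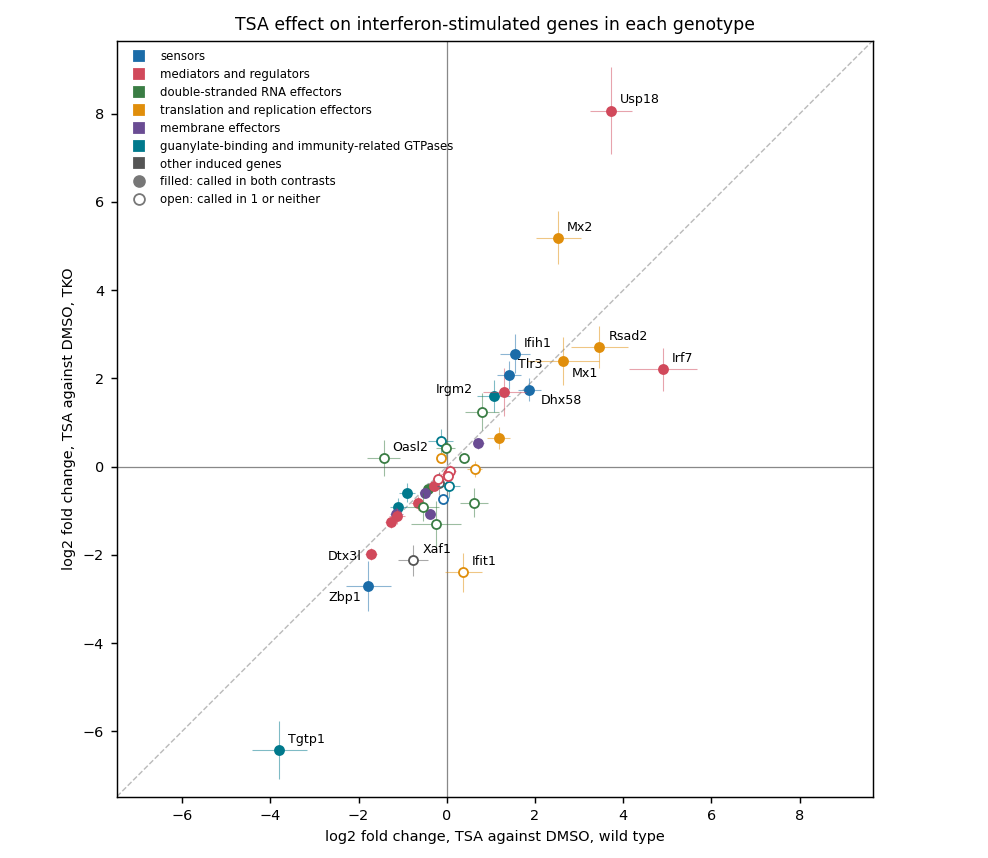
Log2 fold change of TSA against DMSO in wild type (horizontal axis) and in TKO (vertical axis) for the 44 tested interferon-stimulated genes, with bars for the standard error and colours for the role. Points near the dashed line have like estimates in both genotypes, and filled points were called in both. The fitted values of Usp18 in TKO, Tgtp1 in both genotypes, Mx1 and Irf7 in wild type and Mx2 in TKO rest on groups with at most 3 counts in each library and depend on the prior count.

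Genes that rose were at lower levels in DMSO than genes that fell. The 14 that rose in wild type had a median of 1.98 CPM in wild type DMSO (range 0.0357 to 48.5), and the 14 that fell had a median of 41.2 CPM (range 1.46 to 111.1). In TKO the medians in TKO DMSO were 0.571 and 20.02 CPM. The same tilt was present over all tested genes. Below a mean of 5 CPM over the 8 libraries, 10 of 18 members rose with TSA in wild type and 3 fell, where 39.2% of all such genes rose and 7.68% fell. At 5 CPM and above, 4 of 26 members rose and 11 fell, where 22.4% of all such genes rose and 32.6% fell. In TKO, 11 of the 18 low members rose and 5 fell (40.9% and 12.8% of all such genes), while 2 of the 26 others rose and 14 fell (27.1% and 33.5%). The difference in DMSO medians was partly fixed in advance, since the DMSO level is also the base of the fold change. Genes nearly without counts in DMSO, such as Irf7 in wild type and Usp18 in TKO, passed the filter through TSA libraries. A fall from so low a level could not have been seen.

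**Figure D3:**
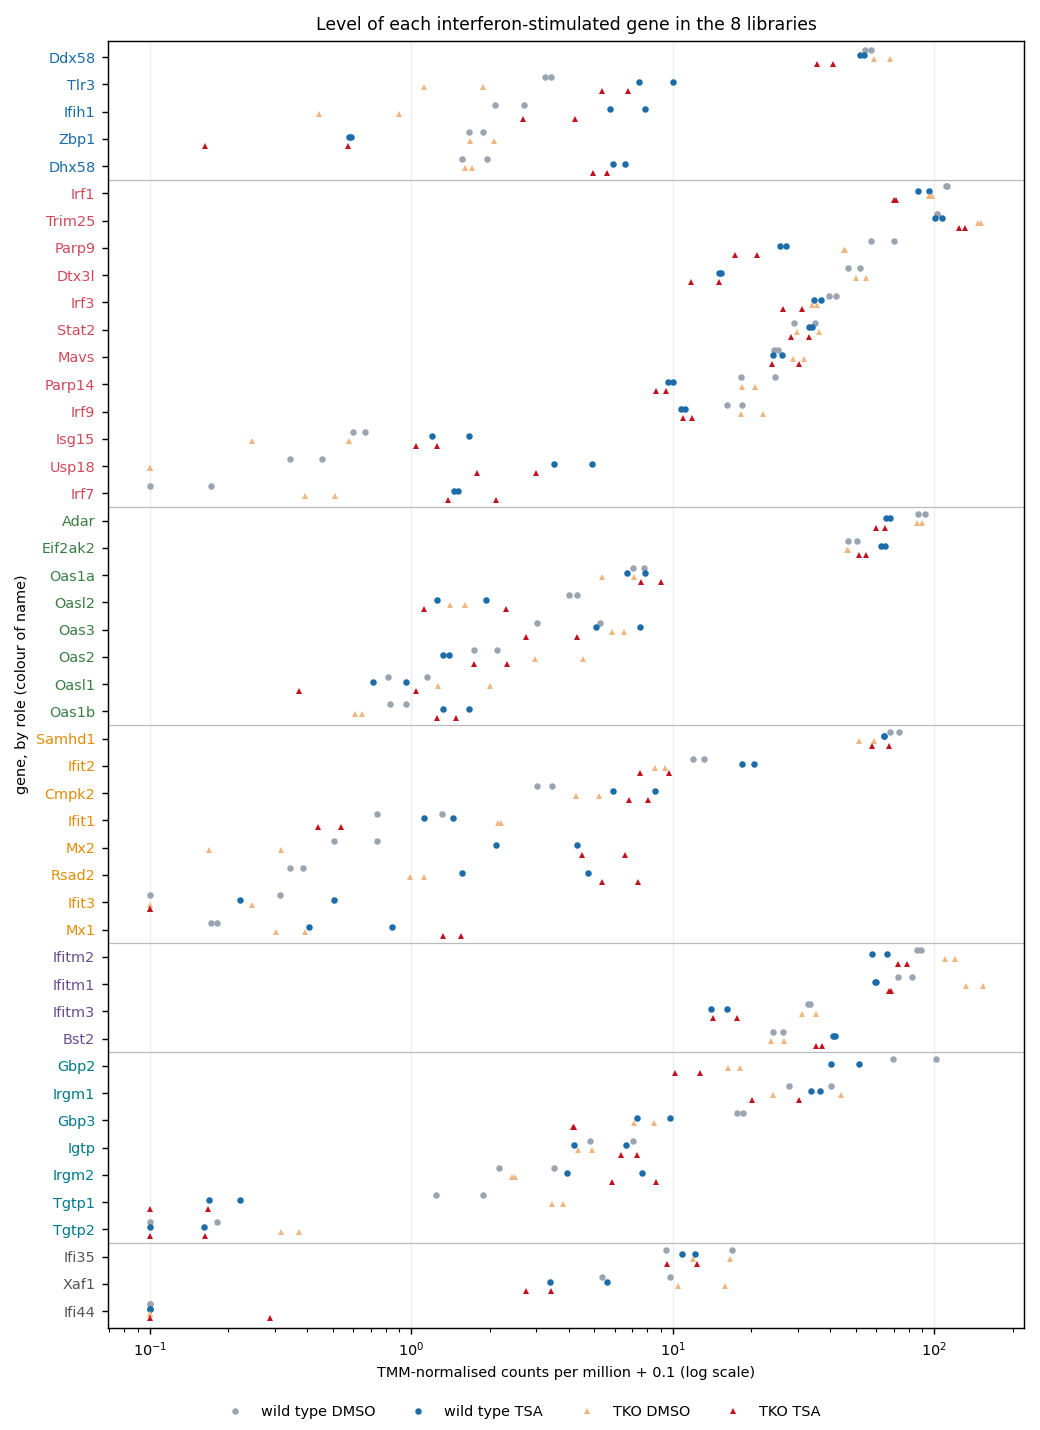
Level of each of the 47 interferon-stimulated genes in the table, as TMM-normalised CPM plus 0.1 on a log scale, in each of the 8 libraries. Circles are wild type and triangles TKO, with DMSO in grey and orange and TSA in blue and red; Usp18, at 0 in both TKO DMSO libraries, sits at 0.1 there and at 1.69 to 2.89 CPM in TKO TSA.

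Promoter windows with the core of the response element were found among the genes that rose and among those that fell. Promoter windows of 300 bases (250 before the start of transcription and 50 after it) came from RefSeq (GRCm38.p6). They were available for 38 of the 47 genes, and the window nearest to the deposited start was used. Of the 9 genes without a window, Dhx58, Usp18, Mx1 and Mx2 rose with TSA in both genotypes, and Zbp1, Parp9 and Parp14 fell in both. Oas1b rose and Oas2 fell in TKO only. The counts and medians by direction below leave these 9 genes out. The core of the interferon-stimulated response element, written here as 2 copies of GAAA separated by any 2 bases, was searched on both strands, with matches that may overlap each other. It was found in 20 of the 38, or 52.6%, where 3.44% of all 32851 windows held it. Of these 20, 6 rose with TSA in wild type, 5 fell, 7 were not called and 2 were not tested. Of the 18 without it, 4 rose, 6 fell, 7 were not called and 1 was not tested. In TKO the 20 divided into 5 that rose and 8 that fell, and the 18 into 3 and 7. A match describes the letters only, and a window without one shows only that these letters are not in it. CpG pairs, the sites of DNA methylation, numbered from 1 to 32 in the 38 windows with a median of 7.5, beside 7.0 in all windows. The median was 9.5 in the windows of the 10 that rose with TSA in wild type and 5.0 in those of the 11 that fell. It was 10.0 in those of the 14 not called. In TKO the medians were 8.5 for those that rose, 5.0 for those that fell and 10.5 for those not called. Below are the 150 bases before the start for 5 genes that rose with TSA in both genotypes and for 5 that fell with TSA in at least 1, with the core in capitals (overlapping matches run together), read 5′ to 3′ on the strand of the gene. Irf7, which rose, and Dtx3l, which fell, are shown as examples without the core, and Dtx3l also for its 11 CpG pairs, where Gbp3 has none in this stretch.
Isg15 (chr4:156200819-156200968, minus strand): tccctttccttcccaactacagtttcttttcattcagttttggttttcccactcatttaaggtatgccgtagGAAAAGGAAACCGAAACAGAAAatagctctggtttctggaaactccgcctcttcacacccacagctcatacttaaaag
Rsad2 (chr12:26456453-26456602, minus strand): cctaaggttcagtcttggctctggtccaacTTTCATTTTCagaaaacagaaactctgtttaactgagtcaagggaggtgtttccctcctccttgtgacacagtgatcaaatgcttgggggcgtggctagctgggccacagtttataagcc
Irgm2 (chr11:58214827-58214976, plus strand): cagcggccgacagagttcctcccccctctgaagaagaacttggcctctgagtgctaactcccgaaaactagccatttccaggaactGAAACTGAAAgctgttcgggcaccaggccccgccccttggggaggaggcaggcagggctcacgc
Bst2 (chr8:71537473-71537622, minus strand): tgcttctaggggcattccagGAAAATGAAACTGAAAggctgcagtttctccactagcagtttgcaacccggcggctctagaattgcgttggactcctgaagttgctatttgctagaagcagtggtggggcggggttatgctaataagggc
Irf7 (chr7:141266425-141266574, minus strand): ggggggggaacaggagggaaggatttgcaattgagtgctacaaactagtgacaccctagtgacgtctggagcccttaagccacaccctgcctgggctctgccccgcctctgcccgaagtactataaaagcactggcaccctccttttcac
Tgtp1 (chr11:48992247-48992396, minus strand): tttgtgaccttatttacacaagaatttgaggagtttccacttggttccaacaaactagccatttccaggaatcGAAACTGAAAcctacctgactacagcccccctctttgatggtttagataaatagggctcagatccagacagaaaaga
Gbp2 (chr3:142620513-142620662, plus strand): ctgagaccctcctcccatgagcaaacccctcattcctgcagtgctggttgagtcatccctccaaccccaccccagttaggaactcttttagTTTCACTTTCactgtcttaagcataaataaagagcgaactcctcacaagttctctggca
Gbp3 (chr3:142559894-142560043, plus strand): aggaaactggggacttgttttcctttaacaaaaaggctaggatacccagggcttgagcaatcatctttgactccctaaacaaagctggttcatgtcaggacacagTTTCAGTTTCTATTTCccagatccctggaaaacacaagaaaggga
Ifit1 (chr19:34640739-34640888, plus strand): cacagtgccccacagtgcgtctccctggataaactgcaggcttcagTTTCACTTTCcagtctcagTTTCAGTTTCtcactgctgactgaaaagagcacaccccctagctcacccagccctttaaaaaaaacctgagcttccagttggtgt
Dtx3l (chr16:35939028-35939177, minus strand): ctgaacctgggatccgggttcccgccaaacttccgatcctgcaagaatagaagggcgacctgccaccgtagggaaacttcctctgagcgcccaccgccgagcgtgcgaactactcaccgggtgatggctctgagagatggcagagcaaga

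Transcripts of the interferons themselves were at or near 0. Of 14 genes for type I, type II and type III interferons in the table, 9 had no count in any of the 8 libraries, and the other 5 gave 17 counts in all, with at most 4 in a library. No interferon gene passed the filter on low counts, so none was tested. Ifnb1, the interferon gene that IRF3 switches on first, had 0 counts in all 8 libraries, which allows up to 0.183 to 0.243 CPM, depending on the library. Its receptors were present in every group. Ifnar1, the type I receptor chain that binds Tyk2, was at 81.1 ± 13.5 CPM (mean ± SD, n = 2) in wild type cells with DMSO and at 86.1 ± 1.91 in TKO cells with TSA, and was not called in any contrast.

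Of the 5 sensors, 3 rose with TSA in both genotypes and Zbp1 fell in both. Among all tested genes, 27% rose and 25.9% fell in wild type, and 30.8% rose and 27.9% fell in TKO. Among tested genes below a mean of 5 CPM, 39.2% rose in wild type and 40.9% in TKO. Positions are those of the deposited table, whose build is mm10 per the submitters' processing notes. Ifih1 (MDA5, chromosome 2, 62595793 to 62646255), which binds long double-stranded RNA, was at 1.998 and 2.59 CPM in wild type cells with DMSO, 5.68 and 7.75 with TSA, 0.342 and 0.8005 in TKO cells with DMSO and 2.57 and 4.14 with TSA. Both TSA libraries of a genotype were above its DMSO libraries, and the TKO DMSO libraries were below all others. The log2 fold change with TSA was 1.55 ± 0.34 (SE, edgeR adjusted p = 0.00299) in wild type and 2.56 ± 0.44 (SE, edgeR adjusted p = 0.000535) in TKO, and that of TKO against wild type was -1.999 ± 0.47 (SE, edgeR adjusted p = 0.012) in DMSO and -0.99 ± 0.32 (SE, edgeR adjusted p = 0.051) in TSA. The difference in TSA was called with RLE, upper quartile or total count scaling, and with no filter on low counts. It was also called with the replicate number as a block, in a fit of only the libraries compared and without either wild type DMSO library. Ifih1 lost its TKO call in DMSO without TKO DMSO replicate 1 (edgeR adjusted p = 0.101). In TKO its TSA estimate was 3.26 without TKO DMSO replicate 2, and its TKO estimate in DMSO was -2.71 without TKO DMSO replicate 2.

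Tlr3 (chromosome 8, 45395665 to 45410539), the endosomal receptor for double-stranded RNA, was at 3.14 and 3.32 CPM in wild type cells with DMSO, 7.33 and 9.92 with TSA, 1.78 and 1.02 in TKO cells with DMSO and 5.28 and 6.66 with TSA. TSA libraries were higher in each genotype, and the TKO DMSO libraries were the lowest. It rose with TSA by 1.41 ± 0.27 (SE, edgeR adjusted p = 0.00146) in wild type and by 2.08 ± 0.31 (SE, edgeR adjusted p = 0.000207) in TKO, and was lower in TKO under DMSO by a log2 fold change of -1.19 ± 0.33 (SE, edgeR adjusted p = 0.0277). Tlr3 lost its TKO call in DMSO without either wild type DMSO library or TKO DMSO replicate 2 (edgeR adjusted p from 0.0696 to 0.193). Dhx58 (LGP2, chromosome 11, 100694884 to 100704271), which tunes signalling by MDA5, was at 1.86 and 1.46 CPM in wild type cells with DMSO, 5.802 and 6.46 with TSA, 1.51 and 1.601 in TKO cells with DMSO and 4.87 and 5.53 with TSA. The TSA libraries of both genotypes lay together above all DMSO libraries, with 1.87 ± 0.26 (SE, edgeR adjusted p = 0.000193) in wild type and 1.74 ± 0.26 (SE, edgeR adjusted p = 0.000217) in TKO, and the genotypes were not called different (-0.10 in DMSO and -0.24 in TSA).

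Ddx58 (RIG-I, chromosome 4, 40203777 to 40239825), which recognises RNA with a triphosphate end, was at 57.2 and 54.4 CPM in wild type cells with DMSO, 53.99 and 51.9 with TSA, 58.7 and 67.8 in TKO cells with DMSO and 40.8 and 35.5 with TSA. It was the most abundant sensor in counts, and only the TKO TSA libraries lay below the rest. It fell with TSA in TKO (-0.73 ± 0.11 SE with edgeR adjusted p = 0.00028) and not detectably in wild type (-0.08 ± 0.11 SE with edgeR adjusted p = 0.592), and was lower in TKO than in wild type under TSA (-0.47 ± 0.11 SE with edgeR adjusted p = 0.0155). The difference between the genotypes in the response to TSA was -0.65 ± 0.16 (SE, edgeR adjusted p = 0.0795), short of the threshold. It was called by DESeq2, and by edgeR without a filter on low counts or with the replicate number as a block. Ddx58 lost its TKO call in TSA without wild type TSA replicate 1 or TKO TSA replicate 2 (edgeR adjusted p = 0.109 and 0.131). Zbp1 (chromosome 2, 173206612 to 173218922), a sensor of Z-form nucleic acids that can start necroptosis, was at 1.57 and 1.78 CPM in wild type cells with DMSO, 0.489 and 0.476 with TSA, 1.57 and 1.96 in TKO cells with DMSO and 0.474 and 0.0628 with TSA. All TSA libraries lay below all DMSO libraries, with log2 fold changes of -1.78 ± 0.51 (SE, edgeR adjusted p = 0.0133) in wild type and -2.72 ± 0.57 (SE, edgeR adjusted p = 0.00181) in TKO. The TKO TSA libraries held 7 and 1 counts of Zbp1. Zbp1 lost its TSA call in wild type without wild type DMSO replicate 2 or either wild type TSA library (edgeR adjusted p from 0.0502 to 0.0631). Its TSA estimate in TKO was -4.64 without TKO TSA replicate 1 and -1.88 without TKO TSA replicate 2.

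Of the 12 mediators and regulators, 3 rose and 5 fell with TSA in wild type, and 3 rose and 6 fell in TKO. Among all tested genes, 27% rose and 25.9% fell in wild type, and 30.8% rose and 27.9% fell in TKO. The adaptor Mavs and the factors Irf3 and Stat2 were expressed in every group and were not called for TSA or for TKO alone. Mavs (chromosome 2, 131234063 to 131248024), the mitochondrial adaptor of RIG-I and MDA5, was at 24.3 and 25.2 CPM in wild type cells with DMSO, 24.1 and 26.1 with TSA, 28.8 and 31.8 in TKO cells with DMSO and 23.95 and 30.4 with TSA. The wild type groups overlapped, and the TKO libraries with DMSO were above the wild type ones. It was not called in any contrast. Irf3 (chromosome 7, 44997648 to 45002848), the factor activated downstream of MAVS, was at 41.8 and 39.6 CPM in wild type cells with DMSO, 36.7 and 34.7 with TSA, 34.1 and 35.6 in TKO cells with DMSO and 31.2 and 26.4 with TSA. It was not called for TSA or for TKO alone, and was called lower in TKO TSA against wild type DMSO (-0.50 ± 0.12 SE with edgeR adjusted p = 0.0036).

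Stat2 (chromosome 10, 128270576 to 128292849), a subunit of the interferon-activated complex, was at 29.05 and 34.9 CPM in wild type cells with DMSO, 33.96 and 33.2 with TSA, 29.7 and 36.2 in TKO cells with DMSO and 28.4 and 33.03 with TSA, and was not called in any contrast. Irf9 (chromosome 14, 55603985 to 55610030), its DNA-binding partner, was at 18.3 and 15.97 CPM in wild type cells with DMSO, 11.1 and 10.7 with TSA, 18.1 and 21.98 in TKO cells with DMSO and 10.8 and 11.7 with TSA. The 4 TSA libraries lay below the 4 DMSO libraries, and Irf9 fell with TSA with a log2 fold change of -0.66 ± 0.16 (SE, edgeR adjusted p = 0.00571) in wild type and -0.83 ± 0.16 (SE, edgeR adjusted p = 0.00113) in TKO. Irf1 (chromosome 11, 53770014 to 53778374), a factor that interferon gamma induces, was at 110.4 and 112 CPM in wild type cells with DMSO, 86.4 and 95.6 with TSA, 97.6 and 95.7 in TKO cells with DMSO and 70.2 and 71.6 with TSA. It fell with TSA with a log2 fold change of -0.29 ± 0.09 (SE, edgeR adjusted p = 0.0201) in wild type and -0.45 ± 0.09 (SE, edgeR adjusted p = 0.00162) in TKO, and was lower in TKO under TSA (-0.36 ± 0.09 SE with edgeR adjusted p = 0.0196). Irf1 lost its TSA call in wild type without wild type TSA replicate 1 (edgeR adjusted p = 0.16), and also with upper quartile scaling, scaling by total counts or a fit of only the libraries compared (adjusted p from 0.0527 to 0.467). Irf1 lost its TKO call in TSA without either wild type TSA library or either TKO TSA library (edgeR adjusted p from 0.0561 to 0.144).

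Irf7 (chromosome 7, 141263183 to 141266424), the interferon-induced factor that amplifies the response, was at 0.0714 and 0 CPM in wild type cells with DMSO, 1.405 and 1.36 with TSA, 0.411 and 0.291 in TKO cells with DMSO and 1.29 and 2.01 with TSA. The wild type DMSO libraries held 1 and 0 counts, and the TSA libraries of both genotypes were above all DMSO libraries. The ratio of TSA to DMSO in wild type was 36.4 (95% exact counting interval 6.199 to 1472, edgeR adjusted p = 0.000426), and in TKO the log2 fold change was 2.20 ± 0.49 (SE, edgeR adjusted p = 0.00258). The fitted log2 fold change in wild type was 4.90, against 7.35 without wild type DMSO replicate 1 and 4.12 without wild type DMSO replicate 2. TKO DMSO was nominally higher than wild type DMSO, which was not called (edgeR adjusted p = 0.0618). The level reached with TSA was at most 2.01 CPM. The intervals and floors given here account for counting error alone: PCR copies of 1 molecule are not separate observations.

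Usp18 (chromosome 6, 121245906 to 121270917), the protease that removes ISG15 from proteins and blocks the type I receptor, was at 0.357 and 0.243 CPM in wild type cells with DMSO, 3.42 and 4.83 with TSA, 0 and 0 in TKO cells with DMSO and 1.69 and 2.89 with TSA. All 4 TSA libraries were above all DMSO libraries. In wild type the log2 fold change was 3.72 ± 0.48 (SE, edgeR adjusted p = 0.00019), and in TKO, with no count in either DMSO library, TSA was at least 10.8-fold higher against a floor of 3 counts per library (edgeR adjusted p = 8.15e-05). TKO DMSO was at least 1.42-fold lower than wild type DMSO, which held 5 and 3 counts (edgeR adjusted p = 0.0391). In a fit of only the DMSO libraries Usp18 did not pass the filter on low counts. Usp18 lost its TKO call in DMSO without either wild type DMSO library or either TKO DMSO library (edgeR adjusted p from 0.0547 to 0.148). Isg15 (chromosome 4, 156199424 to 156200818), the ubiquitin-like modifier among the first genes that interferon induces, was at 0.4996 and 0.567 CPM in wild type cells with DMSO, 1.099 and 1.56 with TSA, 0.479 and 0.146 in TKO cells with DMSO and 1.15 and 0.942 with TSA. It rose with TSA by 1.30 ± 0.48 (SE, edgeR adjusted p = 0.0411) in wild type and 1.69 ± 0.54 (SE, edgeR adjusted p = 0.0195) in TKO. Isg15 lost its TSA call in wild type without either wild type DMSO library, either wild type TSA library or either TKO TSA library (edgeR adjusted p from 0.0559 to 0.216), and also with DESeq2 (adjusted p = 0.182). Isg15 lost its TSA call in TKO without TKO DMSO replicate 2 or TKO TSA replicate 1 (edgeR adjusted p = 0.152 and 0.0828), and also with DESeq2 (adjusted p = 0.09). Its TKO estimate was 2.77 without TKO DMSO replicate 1 and 1.10 without TKO DMSO replicate 2.

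Parp9, Dtx3l and Parp14 lie close together on chromosome 16 and fell with TSA in both genotypes. Parp9 (35938470 to 35972621) encodes an ADP-ribosyltransferase family member that acts in a complex with the ubiquitin ligase Dtx3l, and was at 57.4 and 69.8 CPM in wild type cells with DMSO, 25.7 and 27.1 with TSA, 44.9 and 45.3 in TKO cells with DMSO and 20.9 and 17.2 with TSA. Every TSA library was below every DMSO library. Parp9 fell with a log2 fold change of -1.27 ± 0.13 (SE, edgeR adjusted p = 4.37e-05) in wild type and -1.24 ± 0.14 (SE, edgeR adjusted p = 2.77e-05) in TKO, and was lower in TKO in both treatments (-0.49 ± 0.13 SE with edgeR adjusted p = 0.0205 in DMSO and -0.47 ± 0.14 SE with edgeR adjusted p = 0.0371 in TSA). Parp9 lost its TKO call in DMSO without wild type DMSO replicate 2 or either TKO DMSO library (edgeR adjusted p from 0.101 to 0.11). Parp9 lost its TKO call in TSA without either wild type TSA library, either TKO DMSO library or TKO TSA replicate 2 (edgeR adjusted p from 0.0597 to 0.248).

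Dtx3l (35926515 to 35939027) was at 46.8 and 51.8 CPM in wild type cells with DMSO, 15.1 and 14.9 with TSA, 54.6 and 49.99 in TKO cells with DMSO and 14.9 and 11.6 with TSA. It fell with a log2 fold change of -1.71 ± 0.14 (SE, edgeR adjusted p = 1.33e-05) in wild type and -1.98 ± 0.14 (SE, edgeR adjusted p = 2.55e-06) in TKO, and the genotypes were not called different. Parp14 (35832878 to 35871382), a macrodomain ADP-ribosyltransferase, was at 18.1 and 24.6 CPM in wild type cells with DMSO, 9.89 and 9.51 with TSA, 20.5 and 18.3 in TKO cells with DMSO and 8.53 and 9.36 with TSA. It fell with a log2 fold change of -1.13 ± 0.18 (SE, edgeR adjusted p = 0.000404) in wild type and -1.11 ± 0.18 (SE, edgeR adjusted p = 0.000324) in TKO. Exons of Parp9 and Dtx3l overlap on opposite strands over 9.37% of the Parp9 and 6.45% of the Dtx3l exon length, and the strand setting of the counting is not given in the sources used here, so part of their counts could be shared. Parp14 shares no exon with another gene in the table.

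Trim25, the ubiquitin ligase that activates RIG-I, was at 102 ± 0.0406 CPM (mean ± SD, n = 2) in wild type cells with DMSO and 104 ± 4.51 with TSA. In TKO cells it was at 149 ± 2.43 CPM with DMSO and 127 ± 4.69 with TSA. It was higher in TKO under DMSO (0.54 ± 0.09 SE with edgeR adjusted p = 0.00152) and under TSA (0.30 ± 0.09 SE with edgeR adjusted p = 0.0344), and fell with TSA in TKO (-0.22 ± 0.09 SE with edgeR adjusted p = 0.0446). Trim25 lost its TSA call in TKO without either wild type TSA library, either TKO DMSO library or either TKO TSA library (edgeR adjusted p from 0.0645 to 0.182), and also with RLE scaling, upper quartile scaling, scaling by total counts or DESeq2 (adjusted p from 0.0515 to 0.483). Trim25 lost its TKO call in TSA without either wild type TSA library, either TKO DMSO library or either TKO TSA library (edgeR adjusted p from 0.062 to 0.193), and also with upper quartile scaling, scaling by total counts, no filter on low counts, DESeq2 or a fit of only the libraries compared (adjusted p from 0.0548 to 0.0625).

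Effectors that act on double-stranded RNA moved in no common direction. With TSA, 1 of the 8 rose and 2 fell in wild type, and 1 rose and 3 fell in TKO. The shares of all tested genes were 27% up and 25.9% down in wild type, and 30.8% up and 27.9% down in TKO. Adar, which edits adenosine in double-stranded RNA to inosine and keeps MDA5 from reading it, fell from 89.5 ± 3.71 to 66.6 ± 1.57 CPM (mean ± SD, n = 2) in wild type (-0.43 ± 0.09 SE with edgeR adjusted p = 0.00315) and from 87.9 ± 2.63 to 62.05 ± 3.54 in TKO (-0.50 ± 0.09 SE with edgeR adjusted p = 0.000924). Adar lost its TSA call in wild type with scaling by total counts (adjusted p = 0.0764). Eif2ak2 (PKR), the kinase that halts translation on double-stranded RNA, rose in wild type from 48.5 ± 2.64 to 63.5 ± 1.56 CPM (0.39 ± 0.10 SE with edgeR adjusted p = 0.00683) and was at 46.5 ± 0.277 and 53.1 ± 2.16 CPM in TKO (0.19 ± 0.10 SE with edgeR adjusted p = 0.115), where upper quartile or total count scaling called it higher. Eif2ak2 lost its TSA call in wild type without wild type TSA replicate 2 (edgeR adjusted p = 0.0535).

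The oligoadenylate synthetases make the messenger that activates RNase L, and the Oasl genes are their relatives. Oasl2 (chromosome 5, 114896934 to 114912245) was at 3.93 and 4.21 CPM in wild type cells with DMSO, 1.83 and 1.16 with TSA, 1.51 and 1.31 in TKO cells with DMSO and 1.01 and 2.198 with TSA. The wild type DMSO libraries were the highest, and the other 6 lay between 1.01 and 2.20 CPM. Oasl2 was lower with TSA in wild type (-1.43 ± 0.37 SE with edgeR adjusted p = 0.00773) and lower in TKO under DMSO (-1.52 ± 0.38 SE with edgeR adjusted p = 0.0161), and the difference between the genotypes in the TSA effect was 1.63 ± 0.55 (SE, edgeR adjusted p = 0.199), which was not called. Oasl2 lost its TSA call in wild type without wild type TSA replicate 2 (edgeR adjusted p = 0.0665). Oasl2 lost its TKO call in DMSO without wild type DMSO replicate 1 or either TKO DMSO library (edgeR adjusted p from 0.0565 to 0.111). Oas1b (chromosome 5, 120812635 to 120824160) was at 0.856 and 0.729 CPM in wild type cells with DMSO, 1.22 and 1.56 with TSA, 0.547 and 0.509 in TKO cells with DMSO and 1.15 and 1.38 with TSA. It rose with TSA in TKO (1.25 ± 0.41 SE with edgeR adjusted p = 0.022) and was not called in wild type (0.80 ± 0.38 SE with edgeR adjusted p = 0.101). Oas1b lost its TSA call in TKO without either TKO DMSO library or TKO TSA replicate 2 (edgeR adjusted p from 0.0872 to 0.123), and also with DESeq2 (adjusted p = 0.146).

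Oas2 and Oas3 fell with TSA in TKO, by -0.92 ± 0.32 (SE, edgeR adjusted p = 0.0283) and -0.82 ± 0.33 (SE, edgeR adjusted p = 0.0483). In wild type the TSA estimate of Oas3 was 0.62 ± 0.32 (SE, edgeR adjusted p = 0.127). Its difference between the genotypes was -1.44 ± 0.46 (SE, edgeR adjusted p = 0.17), not called here but called with the replicate number as a block. Oas2 lost its TSA call in TKO without TKO DMSO replicate 2 or TKO TSA replicate 2 (edgeR adjusted p = 0.236 and 0.177), and also with scaling by total counts or DESeq2 (adjusted p = 0.0594 and 0.114). Oas3 lost its TSA call in TKO without either TKO DMSO library or TKO TSA replicate 1 (edgeR adjusted p from 0.0968 to 0.248), and also with upper quartile scaling, scaling by total counts, a filter of 1 CPM in 2 libraries or DESeq2 (adjusted p from 0.0504 to 0.102). Oas1a and Oasl1 were not called in any contrast, with group means of 6.13 to 8.18 CPM for Oas1a and 0.606 to 1.53 CPM for Oasl1. Oas1a, Oas1b, Oas2 and Oas3 lie together on chromosome 5, and the handling of reads shared between such related genes is not given in the sources used here.

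Of 7 tested effectors that act on translation and replication, 5 rose with TSA in wild type, and 4 rose and 1 fell in TKO. Of all tested genes 27% and 30.8% rose, and of those below a mean of 5 CPM 39.2% and 40.9%. Rsad2 (viperin, chromosome 12, 26442743 to 26456452), a radical SAM enzyme that makes a chain-terminating nucleotide, was at 0.285 and 0.243 CPM in wild type cells with DMSO, 1.47 and 4.62 with TSA, 0.8895 and 1.02 in TKO cells with DMSO and 5.28 and 7.28 with TSA. All TSA libraries were above all DMSO libraries. It rose by 3.46 ± 0.66 (SE, edgeR adjusted p = 0.0013) in wild type and 2.71 ± 0.48 (SE, edgeR adjusted p = 0.000662) in TKO, and the wild type estimate was 4.07 without wild type TSA replicate 1 and 2.43 without wild type TSA replicate 2. Cmpk2 (chromosome 12, 26469215 to 26479837), its divergent neighbour and a nucleotide kinase, was at 3.35 and 2.92 CPM in wild type cells with DMSO, 5.802 and 8.43 with TSA, 5.13 and 4.15 in TKO cells with DMSO and 6.699 and 7.91 with TSA. It rose by 1.17 ± 0.26 (SE, edgeR adjusted p = 0.00323) in wild type and 0.65 ± 0.25 (SE, edgeR adjusted p = 0.0388) in TKO. Cmpk2 lost its TSA call in TKO without either TKO DMSO library or either TKO TSA library (edgeR adjusted p from 0.051 to 0.196), and also with DESeq2 (adjusted p = 0.0871).

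Mx1 and Mx2 are dynamin-like GTPases that block viral replication, and both lie on chromosome 16. Mx1 (97447035 to 97462906) was at 0.0714 and 0.0811 CPM in wild type cells with DMSO, 0.305 and 0.748 with TSA, 0.205 and 0.291 in TKO cells with DMSO and 1.22 and 1.44 with TSA. Its wild type DMSO libraries held 1 count each, and the ratio of TSA to DMSO in wild type was 6.78 (95% exact counting interval 1.59 to 60.8, edgeR adjusted p = 0.0191). In a fit of only the wild type libraries Mx1 did not pass the filter on low counts. In TKO it rose by 2.39 ± 0.54 (SE, edgeR adjusted p = 0.00299). Mx1 lost its TSA call in wild type without either wild type DMSO library or wild type TSA replicate 2 (edgeR adjusted p from 0.0714 to 0.178), and also with DESeq2 (adjusted p = 0.0838). Mx2 (97536081 to 97560901) was at 0.642 and 0.405 CPM in wild type cells with DMSO, 2.02 and 4.21 with TSA, 0.0684 and 0.218 in TKO cells with DMSO and 4.398 and 6.47 with TSA. It rose in wild type by 2.53 ± 0.51 (SE, edgeR adjusted p = 0.00184), where the estimate was 1.91 without wild type TSA replicate 2. In TKO, with 1 and 3 counts in the DMSO libraries, the ratio was 38.8 (95% exact counting interval 14.9 to 144, edgeR adjusted p = 3.74e-05), and the fitted log2 fold change was 5.19, against 4.58 without TKO DMSO replicate 1 and 6.14 without TKO DMSO replicate 2.

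Ifit1 and Ifit2, which bind viral RNA and translation factors, went with TSA in other ways. Ifit1 (chromosome 19, 34640889 to 34650009) was at 0.642 and 1.22 CPM in wild type cells with DMSO, 1.34 and 1.02 with TSA, 2.05 and 2.11 in TKO cells with DMSO and 0.338 and 0.4395 with TSA. The TKO TSA libraries were the lowest and the TKO DMSO libraries the highest, and the wild type groups lay between them and overlapped. Ifit1 fell with TSA in TKO (-2.39 ± 0.44 SE with edgeR adjusted p = 0.000852) and was lower in TKO than in wild type under TSA (-1.58 ± 0.47 SE with edgeR adjusted p = 0.0389), while in wild type the TSA estimate was 0.37 ± 0.42 (SE, edgeR adjusted p = 0.477). The difference between genotypes in the TSA effect was -2.76 ± 0.61 (SE, edgeR adjusted p = 0.0578), short of the threshold. It was called by edgeR without a filter on low counts, with the replicate number as a block and without wild type DMSO replicate 2. Ifit1 lost its TKO call in TSA without either wild type TSA library, either TKO DMSO library or either TKO TSA library (edgeR adjusted p from 0.0625 to 0.237), and also with DESeq2 (adjusted p = 0.15).

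Ifit2 (chromosome 19, 34550694 to 34576534) was at 11.8 and 13.05 CPM in wild type cells with DMSO, 18.3 and 20.3 with TSA, 9.24 and 8.44 in TKO cells with DMSO and 9.54 and 7.41 with TSA. The wild type TSA libraries were above all others. It rose with TSA in wild type (0.63 ± 0.17 SE with edgeR adjusted p = 0.00917), was not called in TKO (-0.06 ± 0.18 SE with edgeR adjusted p = 0.775), and was lower in TKO under TSA (-1.19 ± 0.17 SE with edgeR adjusted p = 0.00116), with an interaction of -0.70 ± 0.25 (SE, edgeR adjusted p = 0.217). Ifit2 lost its TSA call in wild type without wild type DMSO replicate 1 or wild type TSA replicate 2 (edgeR adjusted p = 0.05002 and 0.0682). Ifit3 had 0 to 6 counts in a library and was not tested. Samhd1, which depletes nucleotides for reverse transcription, was at 55.1 to 70.5 CPM by group mean and was called in 1 contrast, lower in TKO under DMSO (-0.36 ± 0.11 SE with edgeR adjusted p = 0.0435). Samhd1 lost its TKO call in DMSO without either wild type DMSO library, either wild type TSA library or either TKO DMSO library (edgeR adjusted p from 0.0611 to 0.266), and also with upper quartile scaling, scaling by total counts, no filter on low counts, DESeq2 or a fit of only the libraries compared (adjusted p from 0.0518 to 0.0715).

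Membrane effectors were among the most abundant members. Per kilobase of exon, Ifitm2, Ifitm1 and Ifitm3, which hinder the fusion of virus with the cell membrane, were the 3 highest of the 47 in wild type DMSO at 139.2, 92.03 and 50.98 CPM per kilobase, and all 3 fell with TSA in both genotypes. Ifitm1 (chromosome 7, 140967429 to 140969827) was at 72.6 and 82.03 CPM in wild type cells with DMSO, 59.1 and 59.7 with TSA, 133 and 153 in TKO cells with DMSO and 68.5 and 66.7 with TSA. The TKO DMSO libraries stood above all others, and with TSA the genotypes came close together. It fell with a log2 fold change of -0.38 ± 0.11 (SE, edgeR adjusted p = 0.0109) in wild type and -1.08 ± 0.10 (SE, edgeR adjusted p = 1.3e-05) in TKO, and was higher in TKO under DMSO (0.89 ± 0.10 SE with edgeR adjusted p = 0.000257). The fall was larger in TKO, with a difference of -0.70 ± 0.15 (SE, edgeR adjusted p = 0.0455), and Ifitm1 was the 1 member called for the interaction, or 2.27% of the 44 where 1.35% of all tested genes were called (0.879% with a higher and 0.468% with a lower response in TKO). Ifitm1 lost its interaction call without wild type DMSO replicate 1, either wild type TSA library, either TKO DMSO library or either TKO TSA library (edgeR adjusted p from 0.0732 to 0.222). Ifitm1 lost its TSA call in wild type without wild type DMSO replicate 2 or either wild type TSA library (edgeR adjusted p from 0.051 to 0.06), and also with upper quartile scaling or scaling by total counts (adjusted p = 0.0966 and 0.185). At an unadjusted p below 0.05, 10 members passed for the interaction, or 22.7%, where 14.5% of all tested genes passed.

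Ifitm3 (chromosome 7, 141009590 to 141010744) was at 32.8 and 33.3 CPM in wild type cells with DMSO, 16.1 and 13.9 with TSA, 35.2 and 31.1 in TKO cells with DMSO and 17.5 and 14.1 with TSA. The fall was of like size in both genotypes, -1.14 ± 0.15 (SE, edgeR adjusted p = 0.000125) in wild type and -1.07 ± 0.15 (SE, edgeR adjusted p = 0.000116) in TKO, with an interaction of 0.07 ± 0.21 (SE, edgeR adjusted p = 0.92). Ifitm2 fell with a log2 fold change of -0.50 ± 0.10 (SE, edgeR adjusted p = 0.00216) and -0.61 ± 0.10 (SE, edgeR adjusted p = 0.000445), and was higher in TKO under DMSO (0.40 ± 0.10 SE with edgeR adjusted p = 0.0184). Ifitm2 lost its TKO call in DMSO without wild type DMSO replicate 1 or TKO DMSO replicate 2 (edgeR adjusted p = 0.101 and 0.155). Bst2 (tetherin), which holds budding virus at the cell surface, went the other way. It rose from 25.1 ± 1.61 to 41.2 ± 0.573 CPM (mean ± SD, n = 2) in wild type (0.72 ± 0.12 SE with edgeR adjusted p = 0.000556) and from 25.2 ± 2.09 to 36.2 ± 1.41 in TKO (0.53 ± 0.12 SE with edgeR adjusted p = 0.0028), with no call between genotypes.

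Among the guanylate-binding and immunity-related GTPases, which interferon gamma induces and which attack the vacuoles of intracellular pathogens, 3 of 6 tested fell with TSA in each genotype and Irgm2 rose. For all tested genes, 25.9% fell and 27% rose in wild type, and 27.9% fell and 30.8% rose in TKO. Gbp2 (chromosome 3, 142620663 to 142638008) was at 101 and 69.5 CPM in wild type cells with DMSO, 51.5 and 40.03 with TSA, 17.996 and 16.2 in TKO cells with DMSO and 10.1 and 12.6 with TSA. All wild type libraries were above all TKO libraries, and within a genotype the TSA libraries were the lower ones. It was lower in TKO with a log2 fold change of -2.32 ± 0.20 (SE, edgeR adjusted p = 2.95e-05) in DMSO and -2.01 ± 0.20 (SE, edgeR adjusted p = 0.000143) in TSA. With TSA it fell with a log2 fold change of -0.90 ± 0.18 (SE, edgeR adjusted p = 0.0019) in wild type and -0.59 ± 0.21 (SE, edgeR adjusted p = 0.0312) in TKO. Gbp2 lost its TSA call in TKO without either TKO DMSO library or TKO TSA replicate 1 (edgeR adjusted p from 0.0573 to 0.158), and also with upper quartile scaling or scaling by total counts (adjusted p = 0.0515 and 0.095).

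Gbp3 (chromosome 3, 142560052 to 142573212), which lies near Gbp2, was at 17.5 and 18.5 CPM in wild type cells with DMSO, 7.21 and 9.65 with TSA, 6.98 and 8.37 in TKO cells with DMSO and 4.06 and 4.08 with TSA. It was lower in TKO with a log2 fold change of -1.23 ± 0.19 (SE, edgeR adjusted p = 0.00133) in DMSO and -1.05 ± 0.21 (SE, edgeR adjusted p = 0.00632) in TSA, and lower with TSA with a log2 fold change of -1.10 ± 0.19 (SE, edgeR adjusted p = 0.000716) in wild type and -0.91 ± 0.21 (SE, edgeR adjusted p = 0.00343) in TKO. Gbp2, Gbp3 and Parp9 were the 3 members lower in TKO in both treatments, which is 37.5% of those lower in DMSO and 42.9% of those lower in TSA, beside 43.1% and 55.2% for all tested genes. The 2 genotype comparisons use separate libraries. The 4 calls of Gbp2 and Gbp3 for TKO against wild type were kept in every alternative fit run and without any 1 library.

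Tgtp1 (chromosome 11, 48985329 to 48992246), an immunity-related GTPase also called Irgb6, was at 1.14 and 1.78 CPM in wild type cells with DMSO, 0.122 and 0.06796 with TSA, 3.35 and 3.71 in TKO cells with DMSO and 0.0677 and 0 with TSA. The TSA libraries held 0 to 2 counts, and the TKO DMSO libraries were the highest. In wild type the ratio of DMSO to TSA was 14.9 (95% exact counting interval 4.74 to 75.7, edgeR adjusted p = 0.000565), and in TKO it was 108 (95% exact counting interval 19 to 4320.3, edgeR adjusted p = 1.75e-05). The fitted log2 fold change in TKO was -6.43, against -8.69 without TKO TSA replicate 1 and -5.54 without TKO TSA replicate 2. It was higher in TKO under DMSO by 1.28 ± 0.36 (SE, edgeR adjusted p = 0.0285). Tgtp1 lost its TKO call in DMSO without wild type DMSO replicate 1 or either TKO DMSO library (edgeR adjusted p from 0.0912 to 0.191), and also with DESeq2 (adjusted p = 0.171). Tgtp2 is a close copy of Tgtp1, with 0 to 4 counts in a library, so reads could be split between them.

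Irgm2 (chromosome 11, 58214977 to 58222783), a regulator of this GTPase family, was at 2.07 and 3.404 CPM in wild type cells with DMSO, 3.85 and 7.54 with TSA, 2.39 and 2.33 in TKO cells with DMSO and 5.75 and 8.54 with TSA. It rose with TSA by 1.06 ± 0.37 (SE, edgeR adjusted p = 0.0316) in wild type and 1.60 ± 0.37 (SE, edgeR adjusted p = 0.00322) in TKO. Irgm2 lost its TSA call in wild type without wild type DMSO replicate 1 or wild type TSA replicate 2 (edgeR adjusted p = 0.196 and 0.329). Igtp, which lies beside it on chromosome 11, had group means of 4.52 to 6.72 CPM, and Irgm1 of 25.1 to 35.02 CPM, and neither was called in any contrast. Tgtp1 and Irgm2, both on chromosome 11 and both with the core in the stretch printed above, went in opposite directions with TSA.

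Of the remaining induced genes, Xaf1 (chromosome 11, 72301629 to 72313733), a proapoptotic partner of XIAP, was at 5.28 and 9.65 CPM in wild type cells with DMSO, 3.298 and 5.505 with TSA, 10.3 and 15.8 in TKO cells with DMSO and 2.64 and 3.33 with TSA. The TKO DMSO libraries were above the rest. It fell with TSA in TKO (-2.12 ± 0.35 SE with edgeR adjusted p = 0.000375) and was not called in wild type (-0.76 ± 0.34 SE with edgeR adjusted p = 0.083). The difference between the genotypes was -1.36 ± 0.49 (SE, edgeR adjusted p = 0.221), not called here but called with the replicate number as a block. Ifi35, a leucine zipper protein, had group means of 10.9 to 14.2 CPM and was not called in any contrast. Ifi44 had counts in 1 library of 8. Ifi27 is carried by RefSeq as a newer symbol of Ifi27l1. The row named Ifi27l1 held 5 and 6 counts in wild type cells with DMSO, 25 and 55 with TSA, 26 and 34 in TKO cells with DMSO, and 84 and 178 with TSA. That row was not chosen by symbol and entered no count of members.

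Between the genotypes, under DMSO the 4 members higher in TKO were Trim25, Ifitm1, Ifitm2 and Tgtp1, and the 8 lower were Ifih1, Tlr3, Usp18, Parp9, Oasl2, Samhd1, Gbp2 and Gbp3. Under TSA, Trim25 was the 1 member higher in TKO, and Ddx58, Irf1, Parp9, Ifit1, Ifit2, Gbp2 and Gbp3 were lower. Both counts depend on single libraries. Without 1 library of a compared group fewer of these members were called, and under TSA also without either TKO DMSO library. The calls lost are given above with each gene. A fit without 1 library leaves 1 in its group and has less power for every gene. The losses were not set against those of all tested genes.

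**Figure D4:**
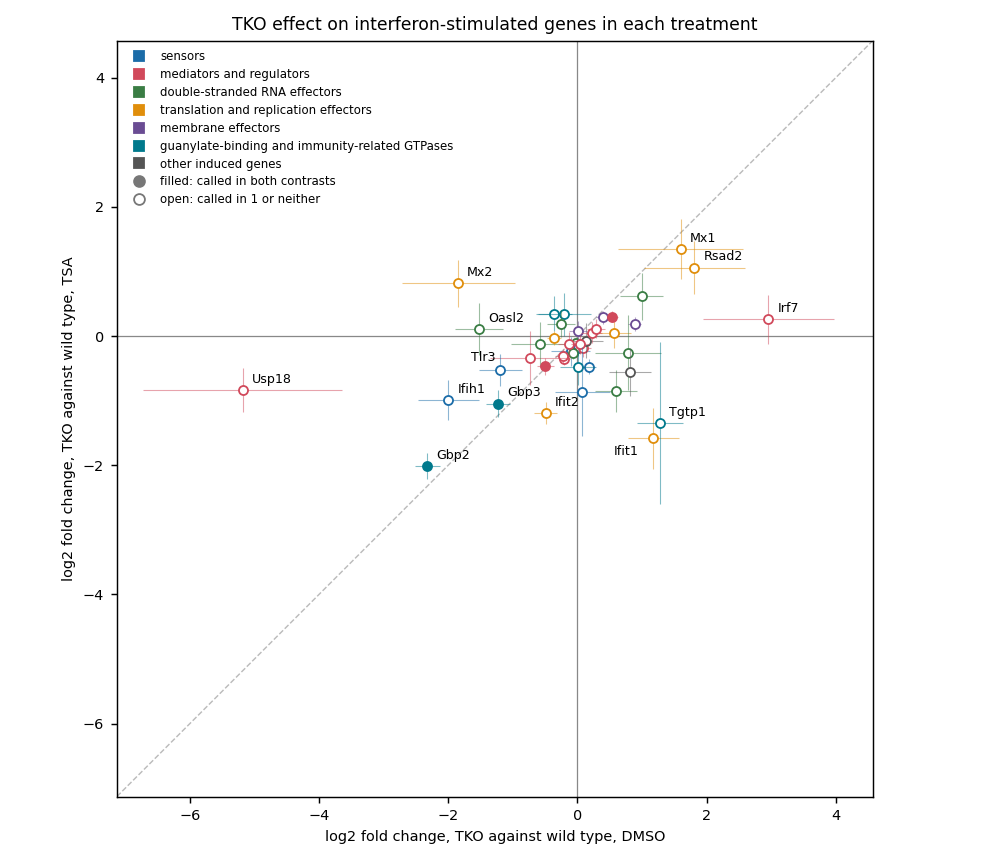
Difference between TKO and wild type cells as log2 fold change, in DMSO on the horizontal axis and in TSA on the vertical axis, for the 44 tested interferon-stimulated genes, with bars for the standard error and colours for the role. Filled points were called in both treatments: Gbp2, Gbp3 and Parp9 lower and Trim25 higher. The DMSO values of Usp18, Irf7, Mx1 and Mx2 and the TSA value of Tgtp1 rest on groups with at most 3 counts in each library and depend on the prior count.

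Between TKO cells with TSA and wild type cells with DMSO, 11 members were higher and 16 lower, or 61.4% called where 61.9% of all tested genes were called (31.7% higher and 30.2% lower). This comparison shares libraries with the others. The 11 higher were Dhx58, Tlr3, Trim25, Irf7, Usp18, Rsad2, Cmpk2, Mx1, Mx2, Bst2 and Irgm2. The 16 lower were Ddx58, Zbp1, Irf1, Irf3, Irf9, Parp9, Parp14, Dtx3l, Oasl2, Adar, Ifit2, Ifitm3, Tgtp1, Gbp2, Gbp3 and Xaf1. Calls were lost for Tlr3 and Irgm2 without wild type DMSO replicate 1, and for these and Trim25 without TKO TSA replicate 2. Oasl2 lost its call without TKO TSA replicate 1, and Xaf1 and Ifit2 without wild type DMSO replicate 2. Ifit2 also lost it without TKO TSA replicate 2 or with scaling by total counts. Rsad2 had a log2 fold change of 4.52 ± 0.61 (SE, edgeR adjusted p = 8.61e-05) and Mx2 of 3.34 ± 0.48 (SE, edgeR adjusted p = 0.000139), while Gbp2 was at -2.91 ± 0.20 (SE, edgeR adjusted p = 1.58e-06) and Dtx3l at -1.90 ± 0.14 (SE, edgeR adjusted p = 2.32e-06).

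Genes of the pathway outside the 48 were counted from lists of receptors and kinases, other sensors and signalling proteins, brakes, and further induced genes. Their counts can be read against the shares of all tested genes, of which 27% rose and 25.9% fell with TSA in wild type and 30.8% and 27.9% in TKO. Among 9 receptors and kinases, 3 rose and 1 fell with TSA in each genotype. Jak1 and Jak2, the receptor-bound kinases, rose in TKO by 1.03 ± 0.09 (SE, edgeR adjusted p = 9.47e-06) and 1.12 ± 0.12 (SE, edgeR adjusted p = 2.06e-05), and Ifngr1, a chain of the interferon gamma receptor, by 1.30 ± 0.17 (SE, edgeR adjusted p = 8.63e-05). Between TKO cells with TSA and wild type cells with DMSO the log2 fold change was 1.39 for Jak1 and 1.03 for Jak2.

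Of 13 tested genes of other sensing and signalling, 4 rose and 4 fell with TSA in wild type, and 4 rose and 5 fell in TKO. Irf8, a factor of the immune lineages, rose by 2.10 ± 0.29 (SE, edgeR adjusted p = 0.000196) in wild type and 3.96 ± 0.36 (SE, edgeR adjusted p = 9.37e-06) in TKO, and was lower in TKO under DMSO (-2.08 ± 0.41 SE with edgeR adjusted p = 0.00502). Mb21d1 (cGAS), the sensor of cytosolic DNA, was at 3.57 and 3.49 CPM in wild type cells with DMSO, 2.63 and 2.45 with TSA, 11.4 and 10.99 in TKO cells with DMSO and 4.398 and 3.705 with TSA. The TKO libraries with DMSO stood above all others. Mb21d1 was higher in TKO under DMSO (1.66 ± 0.21 SE with edgeR adjusted p = 0.000407) and fell with TSA in TKO (-1.46 ± 0.20 SE with edgeR adjusted p = 0.000126). Irf5, a factor downstream of Toll-like receptors, rose in TKO by 1.21 ± 0.23 (SE, edgeR adjusted p = 0.00102).

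Tmem173 (STING), which receives the cGAS messenger, fell with TSA in wild type (-1.18 ± 0.43 SE with edgeR adjusted p = 0.0385) and was lower in TKO under DMSO (-1.46 ± 0.45 SE with edgeR adjusted p = 0.0413). Tmem173 lost its TSA call in wild type without wild type DMSO replicate 2 or either wild type TSA library (edgeR adjusted p from 0.0861 to 0.328), and also with upper quartile scaling, scaling by total counts, DESeq2 or a fit of only the libraries compared (adjusted p from 0.0534 to 0.137). Tmem173 lost its TKO call in DMSO without wild type DMSO replicate 2, either wild type TSA library or either TKO DMSO library (edgeR adjusted p from 0.0507 to 0.248), and also with DESeq2 (adjusted p = 0.128). Irf2, a repressor and relative of Irf1, rose with TSA in wild type (1.34 ± 0.51 SE with edgeR adjusted p = 0.0437) and was lower in TKO under TSA (-1.87 ± 0.52 SE with edgeR adjusted p = 0.0301). Irf2 lost its TSA call in wild type without wild type DMSO replicate 2, either wild type TSA library or either TKO DMSO library (edgeR adjusted p from 0.0643 to 0.234), and also with DESeq2 (adjusted p = 0.207), and its estimate was 2.12 without wild type DMSO replicate 1. Irf2 lost its TKO call in TSA without either wild type TSA library or TKO TSA replicate 1 (edgeR adjusted p from 0.0645 to 0.178), and also with DESeq2 (adjusted p = 0.167), and its estimate was -2.78 without TKO TSA replicate 2. Between TKO cells with TSA and wild type cells with DMSO, Irf5 (1.78) and Irf8 (1.88) were higher, and lower were Rela (-1.14), a subunit of NF-kappaB, and Myd88 (-1.34), the adaptor of Toll-like receptors. Tmem173 was also lower there (-1.41 ± 0.44 SE with edgeR adjusted p = 0.0162). Tmem173 lost its call in the combined comparison without wild type DMSO replicate 2 or TKO TSA replicate 1 (edgeR adjusted p = 0.172 and 0.0976), and also with DESeq2 (adjusted p = 0.0609).

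Of 10 brakes on the pathway, 5 rose and 1 fell with TSA in wild type, and 5 rose and 2 fell in TKO, beside 27% higher and 25.9% lower of all tested genes in wild type and 30.8% and 27.9% in TKO. Nlrc5, a regulator of antigen presentation genes that also dampens signalling, rose by 2.21 ± 0.24 (SE, edgeR adjusted p = 4.91e-05) in wild type and 1.83 ± 0.28 (SE, edgeR adjusted p = 0.000215) in TKO, and was lower in TKO under TSA (-1.37 ± 0.22 SE with edgeR adjusted p = 0.00196). Socs1, which blocks the JAK kinases, rose by 1.22 ± 0.21 (SE, edgeR adjusted p = 0.000712) and 1.14 ± 0.20 (SE, edgeR adjusted p = 0.000554), with a log2 fold change of 1.69 between TKO cells with TSA and wild type cells with DMSO. Tnfaip3 (A20), a ubiquitin-editing enzyme, rose by 1.08 ± 0.24 (SE, edgeR adjusted p = 0.00303) and 1.19 ± 0.27 (SE, edgeR adjusted p = 0.00323). It was lower in TKO under DMSO (-1.36 ± 0.27 SE with edgeR adjusted p = 0.00542) and under TSA (-1.26 ± 0.24 SE with edgeR adjusted p = 0.00478). Tnfaip3 lost its TKO call in DMSO without TKO DMSO replicate 1 (edgeR adjusted p = 0.056).

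Of 30 further induced genes, 17 were tested. In wild type 5 of the 17 rose with TSA, where 27% of all tested genes rose. In TKO 5 rose and 5 fell, where 30.8% of all tested genes rose and 27.9% fell. Sp110, a nuclear body protein, rose in both genotypes (3.40 ± 0.51 SE with edgeR adjusted p = 0.000331 in wild type and 4.14 ± 0.46 SE with edgeR adjusted p = 2.83e-05 in TKO). Its wild type estimate was 4.08 without wild type DMSO replicate 1. Helz2, a helicase, also rose (1.42 ± 0.27 SE with edgeR adjusted p = 0.00126 and 1.59 ± 0.26 SE with edgeR adjusted p = 0.000395), and Herc6, a ligase for ISG15, rose in wild type (1.41 ± 0.24 SE with edgeR adjusted p = 0.000603). Trim30a rose in wild type as well (1.78 ± 0.48 SE with edgeR adjusted p = 0.0094). Trim30a lost its TSA call in wild type without wild type DMSO replicate 1 or wild type TSA replicate 2 (edgeR adjusted p = 0.0793 and 0.0671), and its estimate was 2.45 without wild type DMSO replicate 2. In TKO Lgals3bp, a secreted glycoprotein, fell with a log2 fold change of -2.03 ± 0.48 (SE, edgeR adjusted p = 0.00406). Lgals3bp lost its TSA call in TKO without TKO DMSO replicate 2 (edgeR adjusted p = 0.0582), where its estimate was -1.31 without TKO DMSO replicate 2. Ifi47, an immunity-related GTPase, had a ratio of DMSO to TSA of 10.8 (95% exact counting interval 3.37 to 55.5, edgeR adjusted p = 0.00098) in TKO and was higher in TKO under DMSO (2.18 ± 0.56 SE with edgeR adjusted p = 0.018). Ifi47 lost its TKO call in DMSO without either wild type DMSO library or either TKO DMSO library (edgeR adjusted p from 0.0717 to 0.0994), and also with DESeq2 (adjusted p = 0.209).

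Slfn5 and Gbp7 were lower in TKO in both treatments. Slfn5, a Schlafen family member, was lower with a log2 fold change of -2.45 ± 0.41 (SE, edgeR adjusted p = 0.00189) in DMSO and -1.32 ± 0.32 (SE, edgeR adjusted p = 0.0158) in TSA, and rose with TSA in TKO (1.85 ± 0.42 SE with edgeR adjusted p = 0.00302). Slfn5 lost its TKO call in TSA without wild type TSA replicate 1 or TKO TSA replicate 1 (edgeR adjusted p = 0.0861 and 0.0727), and its estimate was -2.08 without TKO TSA replicate 2. Its TSA estimate in TKO was 1.09 without TKO TSA replicate 2. Gbp7, which lies in the same family as Gbp2 and Gbp3, was lower with a log2 fold change of -1.25 ± 0.24 (SE, edgeR adjusted p = 0.00477) in DMSO and -1.26 ± 0.25 (SE, edgeR adjusted p = 0.00662) in TSA. Gbp7 lost its TKO call in DMSO without TKO DMSO replicate 2 (edgeR adjusted p = 0.0517). Gbp7 lost its TKO call in TSA without TKO TSA replicate 2 (edgeR adjusted p = 0.0579). Between TKO cells with TSA and wild type cells with DMSO the log2 fold change was -1.70 for Gbp7, 1.68 for Herc6, 1.67 for Helz2 and 4.39 for Sp110 (5.06 without wild type DMSO replicate 1).

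Cxcl10, an interferon-induced chemokine outside the 48, was at 1.28 and 1.22 CPM in wild type cells with DMSO, 3.298 and 3.53 with TSA, 0.684 and 0.655 in TKO cells with DMSO and 8.25 and 12.7 with TSA. The TKO libraries with TSA stood above all others. It rose by 1.44 ± 0.32 (SE, edgeR adjusted p = 0.0034) in wild type and 3.95 ± 0.32 (SE, edgeR adjusted p = 5.18e-06) in TKO, and was higher in TKO under TSA (1.62 ± 0.25 SE with edgeR adjusted p = 0.00176). The rise was larger in TKO by 2.51 ± 0.49 (SE, edgeR adjusted p = 0.0371). Cxcl10 lost its interaction call without wild type DMSO replicate 1, either wild type TSA library, either TKO DMSO library or TKO TSA replicate 2 (edgeR adjusted p from 0.0648 to 0.167). Between TKO cells with TSA and wild type cells with DMSO its log2 fold change was 3.06.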

How the data were processed

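RNA-seq was deposited for 8 libraries, and the series' other 118 samples were not analysed here. The values are raw counts per gene that the authors deposited with an exon length for each gene, per the file headers. The submitters' processing notes name TopHat2 2.0.13, featureCounts 1.4.5-p1, edgeR 3.22.3 and the mouse build mm10. The labels' protocols describe a directional library kit with rRNA depletion, and the strand setting of the counting and the handling of reads with several matches are not given in the sources used here.

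The members, the other gene lists and the cell type markers were chosen with earlier results of these data known. The 4 groups were fitted in 1 model with edgeR 4.0.16 (R 4.3.3, quasi-likelihood, TMM factors, no block), after a filter with a minimum count of 10 and a minimum total count of 15 that left 15822 of 23420 genes. The fit has 4 residual degrees of freedom and a common biological coefficient of variation of 10.27%. Tests were two-sided with Benjamini-Hochberg adjustment over all tested genes. Standard errors are approximate, since they were back-calculated from each fold change and its F value. An exact permutation test of 2 against 2 libraries cannot go below p = 0.3333, so none is given. The 2 libraries of a group differed by more than sampling noise (chi-square per degree of freedom 4.544 to 10.26). Values in all libraries are given for members called at a fold of at least 2 with a group mean of at least 1 CPM, and for named sensors and mediators; other pathway genes are named by the same limits, at most 6 per list and contrast. Alternatives were RLE, upper quartile and total count scaling, 2 other filters, DESeq2 1.42.0, a replicate block, a fit of only the libraries compared, and leaving out each library. The code was tested on simulated counts. Promoter windows are from RefSeq (GRCm38.p6).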

Additional observations from a re-analysis of the deposited data

Results flagged for a closer look

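Among the genes named, the following differences between the genotypes in the response to TSA passed the test of the difference itself (the interaction term in edgeR). Ifitm1 fell further with TSA in TKO than in wild type, with a difference of -0.70 on the log2 scale. The call was kept without wild type DMSO replicate 2 and lost without each of the other libraries in turn (edgeR adjusted p from 0.0732 to 0.222). Cxcl10, outside the 48, rose further in TKO, with a difference of 2.51. That call was kept without wild type DMSO replicate 2 or TKO TSA replicate 1 and lost without each of the others (edgeR adjusted p from 0.0648 to 0.167). Dnmt3b, one of the targeted genes, was called lower in TKO in both treatments, and the TSA effect was higher in TKO with a difference of 1.33, which was not called without TKO DMSO replicate 2 (edgeR adjusted p = 0.05045).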

How the results depend on the processing

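Counts of called members stayed within 1.5 times for TSA in each genotype, for TKO against wild type in DMSO and for TKO cells with TSA against wild type cells with DMSO under each alternative that kept all 8 libraries. For TKO against wild type in TSA the 8 calls (1 higher, 7 lower) became 15 with the replicate block (4 higher, 11 lower). For the difference between genotypes in the TSA effect the single call became 3 with no filter on low counts, 2 with DESeq2 and 5 with the replicate block, and the 213 calls among all genes became 488, 387 and 633. Leaving out 1 library at a time gave 21 to 28 calls for TSA in wild type, 26 to 32 for TSA in TKO, 5 to 12 for TKO in DMSO, 3 to 9 for TKO in TSA, 23 to 27 for both together and 0 to 2 for the interaction in edgeR, where 10 members had an unadjusted p below 0.05 with all libraries (22.7%, and 14.5% of all tested genes). Over 108 pairs of a called member and a contrast, 825 of 861 estimates under the alternatives that kept all libraries were called in the same direction and 36 fell short of the threshold, in 17 pairs. The 861 leave out Mx1 for TSA in wild type and Usp18 for TKO in DMSO in the fit of only the libraries compared. Neither passed the filter on low counts in that fit. Leaving out libraries, 755 of 864 stayed called and 109 fell short, in 36 pairs. None reversed. Of the differences not called in the fit reported, some passed under an alternative that kept all libraries, among them Rsad2 and Oas3 for TKO in TSA with no filter on low counts. Upper quartile factors moved the median log2 fold change of all tested genes under TSA to 0.16 in wild type and 0.11 in TKO. With these factors or total counts, all 8 members called for TKO in TSA were lower, where TMM gave 1 higher and 7 lower.

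The labels do not say that a replicate number marks a shared culture or batch, and there are 2 numbers a group, so the libraries were taken to share only a number. How far a library lay from its group's mean correlated between libraries of the same number at 0.067 to 0.325, with the lowest value between wild type DMSO and TKO TSA. With the number as a replicate block the counts of members called were 30, 36, 15, 15, 28 and 5 for TSA in wild type, TSA in TKO, TKO in DMSO, TKO in TSA, both together and the interaction, and those of all genes 9256, 10039, 4217, 4097, 10413 and 633. The block moved no other count of members by over 1.5 times. Depth limits what can be said of genes with few counts, such as the interferons, Ifit3, Tgtp2 and Ifi44.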
